A study of Mus musculus with 10 samples.

Results

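The mRNA levels of 6 genes for the recognition of apoptotic cells, Mertk, Axl, Gas6, Pros1, Timd4 and Mfge8, were followed through 10 libraries of sorted mouse macrophages. The 6 genes were chosen by symbol as receptors and bridging proteins of this process, and they are 6 of the 12535 genes in the expression table. Tyro3, the remaining receptor of the TYRO3, AXL and MERTK family, was not analysed here. All 6 passed the filter on low values and were among the 11127 genes tested.

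Macrophages clear dying cells by efferocytosis. A dying cell exposes phosphatidylserine on its outer membrane, and macrophages bind that lipid directly or through secreted bridging proteins. MERTK and AXL are receptor tyrosine kinases that do not touch the lipid themselves. Their ligands GAS6 and protein S, the product of Pros1, bind phosphatidylserine at one end and the receptor at the other. GAS6 binds both AXL and MERTK, whereas protein S binds MERTK and is also an anticoagulant of the blood. TIM-4, encoded by Timd4, binds phosphatidylserine directly, tethers the dying cell, and is a marker of long-lived tissue macrophages in many mouse organs. MFG-E8 is a secreted protein that bridges phosphatidylserine to alpha-v integrins.

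The cKO-labelled tumour-associated macrophages (TAM, 3 libraries) came from C57/BL6 mice with floxed Ahr alleles and the label Lys M. The design text names this line as a conditional knockout under Lyz2, the lysozyme M gene expressed in macrophages, neutrophils and other myeloid cells. Control TAM (3 libraries) came from C57/BL6 Ahr fl/fl mice, so both TAM groups carried floxed Ahr. Both bore tumours of a single line, the KPC pancreatic adenocarcinoma organoid line MT4, implanted in the pancreas and taken at day 14. Resident macrophages (4 libraries) came from the pancreas of healthy wild-type C57/BL6 mice, so control TAM differed from them in both the tumour and the floxed allele. Every library was sorted as CD45+CD11b+F4/80+ cells. The mice's ages were not in the sources used here. The design text counts as many mice as libraries, but no label ties a library to a mouse, and p-values measure the spread between these libraries, which may be technical in part.

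Values are FPKM, fragments counted per kilobase of each gene and adjusted for library size. The measure is meant to let levels be compared between genes and between libraries, but the lengths and scaling used here are not given. Summed FPKM per library ran from 459374 in control TAM to 544670 in resident macrophages. The depth recovered from the values was 10312808 to 26454723 reads per library. A member was covered by 319 reads at least (Mfge8 in resident replicate 2) and 20721 at most (Gas6 in resident replicate 4), which gives a counting error of 0.695% to 5.6%. The macrophage markers were present in every library, and Csf1r, the receptor for the growth factor CSF1, averaged 454 ± 6.90 FPKM in cKO-labelled TAM, 534 ± 7.65 in control TAM and 1238 ± 6.40 in resident macrophages (SD, n = 3, 3 and 4). Of the 8 macrophage markers listed, 4 rose and 4, Csf1r and Lyz2 among them, fell in either TAM group against resident macrophages. Itgam, which rose, averaged 59.7 FPKM in cKO-labelled TAM, 75.9 in control TAM and 31.4 in resident macrophages. In cKO-labelled against control TAM 1 of the 8 rose and 5 fell. Ahr, the targeted gene, had 10.2, 11.2 and 9.65 FPKM in cKO-labelled TAM, 7.11, 6.91 and 7.51 in control TAM, and 3.84, 4.46, 4.29 and 4.16 in resident macrophages. Ahr mRNA was thus higher in the cKO-labelled libraries (log2 change 0.47 ± 0.07 SE, adjusted p = 0.000108), and a value over the whole gene does not show whether floxed exons were lost. Lyz2 averaged 11459.7 ± 203 FPKM in cKO-labelled TAM, 19904 ± 85.1 in control TAM and 28140.4 ± 477 in resident macrophages.

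The genes lie at separate loci (GRCm38, GENCODE M21, 1-based). Mertk (ENSMUSG00000014361) is on the plus strand at chr2:128698956-128802894, and Axl (ENSMUSG00000002602) on the minus strand at chr7:25757273-25788705. Gas6 (ENSMUSG00000031451) is on the minus strand at chr8:13465374-13494490, where it overlaps Tmem255b on the other strand. Pros1 (ENSMUSG00000022912) is on the plus strand at chr16:62854307-62929346, Timd4 (ENSMUSG00000055546) on the plus strand at chr11:46810800-46844332, and Mfge8 (ENSMUSG00000030605) on the minus strand at chr7:79133768-79149060. Mertk overlaps the antisense gene Gm14011 and, on its own strand, the snoRNA gene Gm23172. The libraries carry no strand information, so reads of such partners cannot be told apart from those of Gas6 and Mertk. None of these partners is among the genes of the expression table, so their levels are not known here.

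The 250 bases before the start site are shown for Gas6, which changed most of the 6 in every comparison, for Mfge8, the gene that ran opposite to most others, and for Timd4, the tethering receptor. Sequences are those of RefSeq for GRCm38.p6, 5′ to 3′ on the strand of the gene. Capitals mark GCGTG, the core to which AHR binds together with its partner ARNT, and GGGCGG, the GC box of SP1-type factors, on either strand (CACGC and CCGCCC when read from the other strand).
Gas6, chr8:13494536-13494785, minus strand: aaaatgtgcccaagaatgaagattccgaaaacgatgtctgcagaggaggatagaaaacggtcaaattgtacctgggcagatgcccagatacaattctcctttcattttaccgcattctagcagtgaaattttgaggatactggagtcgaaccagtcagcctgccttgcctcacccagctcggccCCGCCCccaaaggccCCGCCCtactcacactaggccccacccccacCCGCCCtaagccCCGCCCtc
Mfge8, chr7:79149061-79149310, minus strand: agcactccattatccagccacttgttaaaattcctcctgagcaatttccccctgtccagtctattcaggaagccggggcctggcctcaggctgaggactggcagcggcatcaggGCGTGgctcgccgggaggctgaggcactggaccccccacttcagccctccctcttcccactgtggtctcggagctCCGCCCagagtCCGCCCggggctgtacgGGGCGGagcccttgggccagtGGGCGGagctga
Timd4, chr11:46810549-46810798, plus strand: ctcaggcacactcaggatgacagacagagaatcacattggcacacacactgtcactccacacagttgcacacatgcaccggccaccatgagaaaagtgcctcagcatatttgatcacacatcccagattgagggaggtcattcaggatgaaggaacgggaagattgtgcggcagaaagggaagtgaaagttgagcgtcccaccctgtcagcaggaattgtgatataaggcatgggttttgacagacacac
The AHR core stood in 1 of the 6 windows, that of Mfge8, with its first base at position -136, and in 28.2% of all 32851 promoter windows of the same length. The longer element TNGCGTG stood in none of the 6 and in 4.10% of all windows. The GC box stood in 5 of the 6 windows and in 32.7% of all: 4 copies each for Gas6 and Mfge8, 5 for Pros1, 3 for Mertk, 1 for Axl and none for Timd4. The GAGGAA core of the macrophage factor PU.1 stood in the windows of Axl and Mfge8 and in 23.3% of all, and TATAAA in none of the 6 and in 12.4% of all. A match of these letters is a description of the window and not a binding site.

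The 6 genes differed between the groups in all but 1 of their comparisons. In cKO-labelled against control TAM, Gas6 and Mfge8 rose, Mertk, Axl and Timd4 fell, and Pros1 did not pass the test. In control TAM against resident macrophages, Mfge8 rose and the other 5 fell, and the same held for cKO-labelled TAM against resident macrophages. Such calls, at an adjusted p under 0.05, were common among all genes tested. In cKO-labelled against control TAM 39.6% were called, 20.5% higher and 19.1% lower. In control TAM against resident macrophages 77.1% were called, 39% higher and 38.1% lower, and in cKO-labelled TAM against resident macrophages 77.4% were called, 40.2% higher and 37.2% lower. The 6 called in either comparison with resident macrophages are therefore little above the share of all genes.

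Groups without overlap were common too. The libraries of the groups did not overlap for 5 of the 6 genes in cKO-labelled against control TAM, beside 51.4% of all genes tested, and for 6 of 6 in the comparisons of control and cKO-labelled TAM with resident macrophages, beside 73.9% and 75.5%. Changes of 2-fold or more were rarer. In cKO-labelled against control TAM 1.32% of all genes tested were called with such a change, Gas6 among them. The share was 16.9% in control TAM against resident macrophages and 15.1% in cKO-labelled TAM against resident macrophages, Gas6 and Timd4 among them both times. Mertk in cKO-labelled TAM against resident macrophages was at this limit: its mean FPKM was 2.02-fold lower, while its log2 change was -0.97 with the added 1 and -1.01 with voom. The median log2 change of all genes tested was 0.01 in cKO-labelled against control TAM and 0.00 in control TAM against resident macrophages. The comparisons share groups of libraries, so they are not independent.

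**Figure D1:**
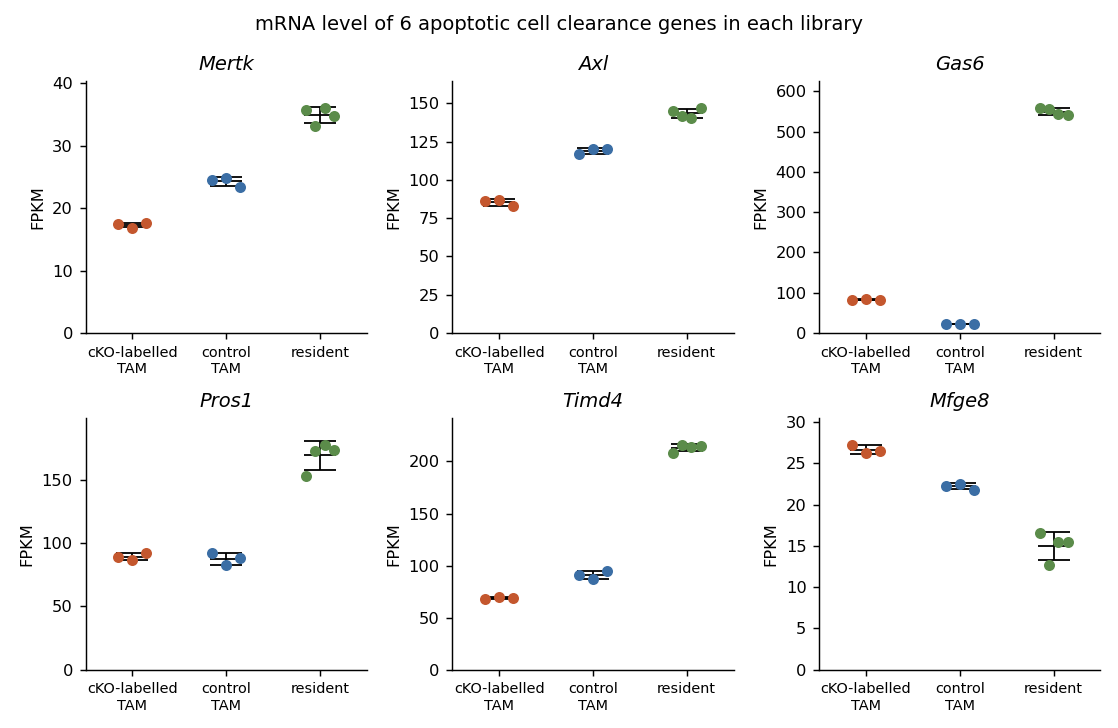
FPKM of the 6 genes in each library (points), with the mean and SD of each group (bars), on axes that start at 0. The groups are separate for every gene except Pros1, whose cKO-labelled and control TAM libraries overlap; Gas6 stands at 541 to 559 FPKM in resident macrophages, far above either TAM group.

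Mertk, the receptor through which macrophages engulf dying cells in many tissues, was lowest in cKO-labelled TAM. It had 17.4, 16.9 and 17.6 FPKM in cKO-labelled TAM, 24.5, 24.8 and 23.4 in control TAM, and 35.8, 33.1, 36.0 and 34.8 in resident macrophages. Each group lay below the next with no overlap. Mertk fell by 28.7% in cKO-labelled against control TAM (log2 change -0.46 ± 0.05, 95% interval -0.57 to -0.36, adjusted p = 1.88e-06 in limma). It fell by 30.5% in control TAM against the resident libraries (-0.51 ± 0.04, adjusted p = 2.89e-08). Across both steps, cKO-labelled TAM held 49.5% of the resident mean.

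Axl, the relative of Mertk that is induced by inflammatory signals and binds GAS6, ran in the same order. It had 86.1, 86.8 and 83.0 FPKM in cKO-labelled TAM, 117, 120.0 and 120.3 in control TAM, and 145, 142, 140.2 and 147 in resident macrophages. The cKO-labelled libraries were all below the control libraries, and those were all below the resident ones. Axl fell by 28.4% in cKO-labelled against control TAM (-0.48 ± 0.03, interval -0.55 to -0.41, adjusted p = 3.12e-08). In control TAM against resident macrophages it fell by 17.0% (-0.27 ± 0.03, adjusted p = 1.14e-06), but with the libraries rescaled to a common total this call was lost (-0.055, adjusted p = 0.11). That rescaling moved the median log2 change of all genes to 0.20, and Axl then stood at -0.25 relative to it, against -0.27 as deposited.

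The ratio of the receptors differed between the TAM groups by less than its spread. Axl had 4.93 ± 0.212 times the FPKM of Mertk in cKO-labelled TAM, 4.91 ± 0.195 times in control TAM and 4.11 ± 0.177 times in resident macrophages. Summed, Axl and Mertk came to 103 ± 1.74 FPKM in cKO-labelled TAM, 143 ± 1.78 in control TAM and 178 ± 3.28 in resident macrophages. The samples are bulk RNA, in which fewer cells expressing a gene and less of its RNA per cell cannot be told apart.

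Gas6, the ligand for both receptors, changed most of the 6 genes. It had 82.2, 83.6 and 81.7 FPKM in cKO-labelled TAM, 22.1, 21.8 and 21.5 in control TAM, and 559, 556, 544 and 541 in resident macrophages. Control TAM had the lowest values and the cKO-labelled libraries lay between them and the resident libraries. Gas6 was 3.78-fold higher in cKO-labelled than in control TAM (log2 change 1.87 ± 0.03, interval 1.81 to 1.94, adjusted p = 5.67e-16), the 29th largest rise of 11127 genes. It was 25.2-fold lower in control TAM than in resident macrophages (-4.59 ± 0.03, adjusted p = 1.06e-22), the 47th largest fall. Directly against resident macrophages, cKO-labelled TAM remained 6.66-fold lower (-2.72 ± 0.03, adjusted p = 1.11e-19), at 15% of the resident mean, beside 3.97% in control TAM.

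Pros1, the gene for protein S, was the one member that did not separate the TAM groups. It had 89.1, 86.7 and 92.2 FPKM in cKO-labelled TAM, 92.1, 82.8 and 88.2 in control TAM, and 153, 173, 178 and 173 in resident macrophages. The TAM groups overlapped, and every resident library lay above both. The difference between cKO-labelled and control TAM was 0.03 ± 0.05 on the log2 scale, with an interval from -0.09 to 0.14 (adjusted p = 0.713), and its sign turned under rescaling to a common total (-0.051), under quantile normalization (-0.020) and without control TAM replicate 2 (-0.013). Pros1 fell by 48.1% in control TAM against the resident libraries (-0.94 ± 0.05, adjusted p = 5.31e-11), and the value for cKO-labelled TAM against resident macrophages was -0.91 ± 0.05 (adjusted p = 8.53e-11).

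The make-up of the ligand mRNA differed between the groups. Gas6 made up 48.0 ± 1.05% of the summed Gas6 and Pros1 FPKM in cKO-labelled TAM, 19.9 ± 0.780% in control TAM and 76.5 ± 1.42% in resident macrophages. The sum was 172 ± 1.87 FPKM in cKO-labelled TAM, 109.5 ± 4.82 in control TAM and 719 ± 7.6 in resident macrophages. Set against the sum of Axl and Mertk, ligand mRNA was 1.68 ± 0.0466 times receptor mRNA in cKO-labelled TAM, 0.764 ± 0.0429 times in control TAM and 4.03 ± 0.115 times in resident macrophages. Control TAM was the one group in which receptor mRNA exceeded ligand mRNA, in all 3 of its libraries. These are mRNA levels in the sorted cells, and ligand made by other cells was not measured.

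**Figure D2:**
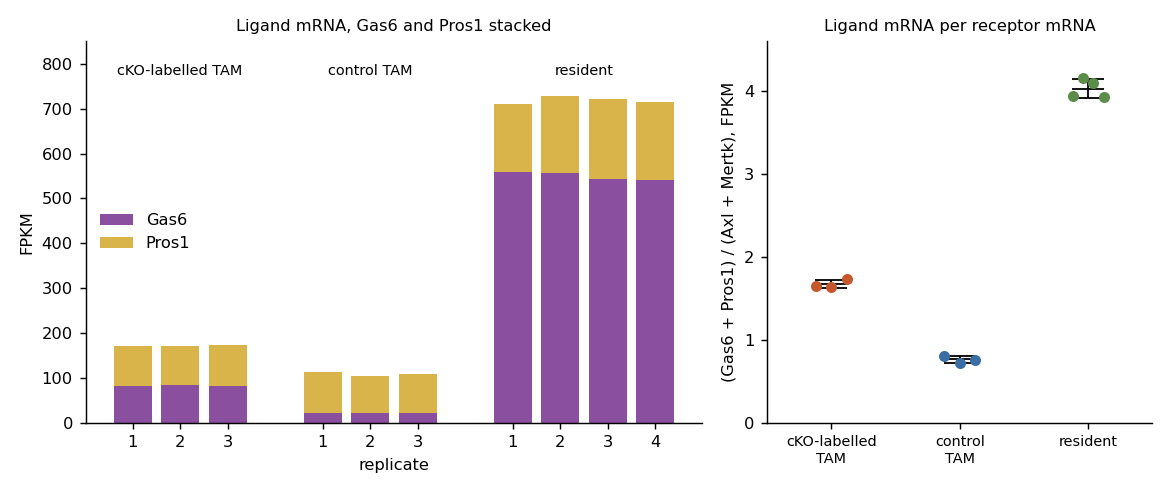
Left, FPKM of Gas6 and Pros1 stacked for each library; right, the sum of Gas6 and Pros1 divided by the sum of Axl and Mertk in each library (points) with mean and SD. The Gas6 segment is 48.0% of the bar on average in cKO-labelled TAM, 19.9% in control TAM and 76.5% in resident macrophages, and the ratio is below 1 in the 3 control TAM libraries.

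Timd4 fell in both comparisons. It had 68.2, 69.7 and 68.6 FPKM in cKO-labelled TAM, 91.0, 87.5 and 95.2 in control TAM, and 208, 216, 214 and 215 in resident macrophages. The resident libraries stood far above the rest, and the cKO-labelled libraries were below every control library. Timd4 fell by 24.5% in cKO-labelled against control TAM (-0.40 ± 0.04, interval -0.48 to -0.32, adjusted p = 4.45e-07). It fell by 57.3% in control TAM against the resident libraries (-1.22 ± 0.03, adjusted p = 1.01e-14). In cKO-labelled TAM it was 3.10-fold lower than in resident macrophages (-1.62 ± 0.03, adjusted p = 3.04e-16). The tether had 3.98 ± 0.131 times the FPKM of Mertk in cKO-labelled TAM, 3.77 ± 0.272 times in control TAM and 6.12 ± 0.307 times in resident macrophages.

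Mfge8 was the one member that was higher in both TAM groups than in resident macrophages. It had 27.2, 26.2 and 26.5 FPKM in cKO-labelled TAM, 22.3, 22.5 and 21.8 in control TAM, and 16.6, 12.6, 15.4 and 15.5 in resident macrophages. The groups did not overlap and ran opposite to Mertk, Axl and Timd4. Mfge8 was 20% higher in cKO-labelled than in control TAM (0.25 ± 0.07, interval 0.10 to 0.41, adjusted p = 0.0118), a call that was lost with the libraries rescaled to a common total (0.18, adjusted p = 0.0613, where the median of all genes was -0.06). Against resident macrophages it was 47.8% higher in control TAM (0.54 ± 0.07, adjusted p = 2.28e-06) and likewise higher in cKO-labelled TAM (0.79 ± 0.07, adjusted p = 2.45e-08).

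**Figure D3:**
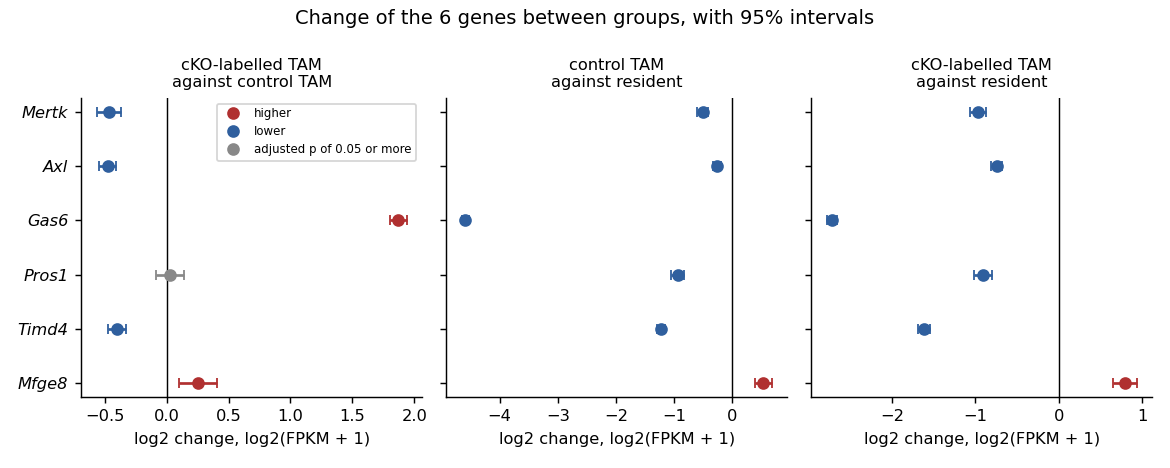
Log2 change of each gene on the log2(FPKM + 1) scale with its 95% interval, in 3 comparisons, coloured by the call at an adjusted p under 0.05. In cKO-labelled against control TAM, Gas6 lies at 1.87 and the other 5 genes between -0.48 and 0.25.

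The rank order of the 6 genes by FPKM differed between the groups. In cKO-labelled TAM it ran Pros1, Axl, Gas6, Timd4, Mfge8, Mertk. Pros1 and Axl kept these places in 2 of 3 libraries, and the ranges of Pros1 and Axl, and of Axl and Gas6, overlapped. In control TAM it ran Axl, Timd4, Pros1, Mertk, Mfge8, Gas6, with Timd4 and Pros1 exchanging places in 1 of 3 libraries and overlapping ranges for Mfge8 and Gas6. In resident macrophages it ran Gas6, Timd4, Pros1, Axl, Mertk, Mfge8 in 4 of 4 libraries. Gas6 was therefore the most abundant of the 6 in resident macrophages, at the 99.1 percentile of genes tested, and the least abundant in control TAM, at the 73.5 percentile. In cKO-labelled TAM it stood at the 92.2 percentile.

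Likeness of profile was measured as the root-mean-square difference of mean-centred log2(FPKM + 1) over the 10 libraries. Among the 6 genes the closest pair was Mertk and Axl, at 0.125, and the farthest Gas6 and Mfge8, at 2.21. Of all other genes tested, the 3 nearest to Gas6 were Sult1a1, a sulfotransferase, at 0.0767, Mgl2, a macrophage galactose-binding lectin, at 0.156, and C1qtnf1 at 0.208. Sult1a1 averaged 35.4 FPKM in cKO-labelled TAM, 9.33 in control TAM and 230.0 in resident macrophages, and Mgl2 averaged 154 FPKM in cKO-labelled TAM, 36.0 in control TAM and 795 in resident macrophages. The nearest neighbour of each other member lay closer, at 0.0278 to 0.0588. The nearest to Mertk were Osbpl11 (0.0278), Cerk (0.0551) and Hps5 (0.0614), and those to Axl were Mfhas1 (0.0491), Sgpl1 (0.0573) and Coro1c (0.0573). Timd4 had Frmd4b (0.0512), Gypc (0.0570) and Sec14l1 (0.0649). Pros1 had Stxbp3 (0.0546), Abhd12 (0.0598) and Ctla2b (0.0605), and Mfge8 had Relt (0.0588), Phgdh (0.0685) and Aen (0.0724).

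Markers of macrophage subsets and of other cell types moved beside these genes. The summed FPKM of 10 tissue-resident macrophage markers (Lyve1, Cd163, Folr2, Mrc1, Cbr2 and others) was 727 to 749 in cKO-labelled TAM, 271 to 283 in control TAM and 4866 to 4935 in resident macrophages. Cbr2, Clec10a and Cd209f differed most in FPKM between the TAM groups. They averaged 279, 120 and 61.3 FPKM in cKO-labelled TAM and 62.8, 26.4 and 1.54 in control TAM. Lyve1 and Mrc1 differed less, at 35.6 and 32.5 FPKM in cKO-labelled TAM and 26.1 and 25.5 in control TAM. Of these 10, 9 rose and none fell in cKO-labelled against control TAM, Cd163 being the one not called, and 10 of 10 fell in control TAM against resident macrophages. The sum was 15.1% of the resident mean in cKO-labelled TAM and 5.62% in control TAM, beside 15% and 3.97% for Gas6. This likeness was not particular to the tissue-resident list, because the B cell sum lay near these shares in both TAM groups. Timd4, also known as a marker of resident macrophages, ran the other way between the TAM groups, at 32.3% and 42.7% of the resident mean. Of 10 large peritoneal macrophage markers, 1 rose and 6 fell in cKO-labelled against control TAM, and their sum was 1158 to 1173 FPKM in cKO-labelled TAM, 1328 to 1341 in control TAM and 618 to 639 in resident macrophages.

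Transcripts of non-macrophage cells moved as well. Summed acinar enzyme transcripts were 365 to 379 FPKM in cKO-labelled TAM, 85.4 to 90.2 in control TAM and 31748 to 33741 in resident macrophages, and 14 of 14 tested rose in cKO-labelled against control TAM. Amy2a5, a listed amylase gene that did not pass the filter, was at 0 in every control TAM library. B cell markers summed to 241 to 246 FPKM in cKO-labelled TAM, 87.2 to 96.1 in control TAM and 1339 to 1362 in resident macrophages, with 4 of 4 tested higher in cKO-labelled than in control TAM. Endothelial markers summed to 27.5 to 29.2 FPKM in cKO-labelled TAM, 7.56 to 8.73 in control TAM and 3.48 to 3.86 in resident macrophages, with 3 of 3 tested higher in cKO-labelled than in control TAM.

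Monocyte markers separated both TAM groups from resident macrophages. Of 8 tested, 7 rose and 1, F13a1, fell in control TAM against resident macrophages, with a median log2 change of 3.49, and 7 rose and 1 fell in cKO-labelled TAM, with a median of 3.25. Plac8 averaged 374 ± 6.52 FPKM in cKO-labelled TAM, 364 ± 7.98 in control TAM and 9.84 ± 0.472 in resident macrophages. In cKO-labelled against control TAM 2 of the 8 rose, 2 fell and 4 did not pass the test. F13a1, which is also on the tissue-resident list, carried most of the resident sum, and the monocyte list is left out of the plot of summed markers.

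Markers of granulocytes were also called between the TAM groups. Of 9 neutrophil markers tested, 6 rose and 1 fell in cKO-labelled against control TAM, among them S100a9, which averaged 57.0 ± 3.44 FPKM in cKO-labelled TAM, 25.4 ± 3.21 in control TAM and 0.0320 ± 0.0641 in resident macrophages. Their sum was 1504 to 1666 FPKM in cKO-labelled TAM, 1250 to 1276 in control TAM and 33.2 to 34.8 in resident macrophages. Retnlg made up most of it in the TAM groups, at 1420.3 ± 78.1 FPKM in cKO-labelled TAM and 1166 ± 14.9 in control TAM, and its call was lost under rescaling to a common total and quantile normalization. Of 5 eosinophil markers tested, 3 rose and none fell in cKO-labelled against control TAM, with a median log2 change of 0.73. Siglecf averaged 27.0 ± 0.659 FPKM in cKO-labelled TAM, 15.3 ± 1.03 in control TAM and 0.494 ± 0.164 in resident macrophages. Against resident macrophages 4 of the 5 rose and 1, Ear2, fell in either TAM group. Ear2 averaged 28.5 FPKM in cKO-labelled TAM, 14.9 in control TAM and 50.7 in resident macrophages. The eosinophil sum was 796% of the resident mean in cKO-labelled TAM and 782% in control TAM, most of it Alox15, at 1375 ± 11.8 FPKM in cKO-labelled TAM and 1389 ± 20.9 in control TAM.

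Fibroblast markers summed to 181 to 184 FPKM in cKO-labelled TAM, 221 to 226 in control TAM and 48.2 to 52.2 in resident macrophages, with Pdgfrb below 1 FPKM in all 10 libraries, and 3 of 7 tested rose and 2 fell in cKO-labelled against control TAM. The epithelial sum was 289 to 303 FPKM in cKO-labelled TAM, 292 to 302 in control TAM and 9.33 to 10.9 in resident macrophages. Dendritic cell markers summed to 78.9% of the resident mean in cKO-labelled TAM and 64.0% in control TAM, and 3 of 6 tested rose and 1 fell between these groups. Irf8 made up most of the dendritic sum in both TAM groups, at 107 FPKM in cKO-labelled TAM and 116 in control TAM. It averaged 72.9 FPKM in resident macrophages, whereas Cd209a averaged 43.7 in cKO-labelled TAM, 17.7 in control TAM and 118 in resident macrophages. T and NK cell markers summed to 209.5% of the resident mean in cKO-labelled TAM and 201% in control TAM, and 3 of 7 tested rose and 1 fell. These levels were low: the resident sum was 4.47 to 5.81 FPKM, with 7 of 8 markers below 1 FPKM in every resident library. Cd4, the remaining marker, averaged 3.22 FPKM there but 0.681 in cKO-labelled TAM and 0.385 in control TAM. The part of other cells in the changes of the 6 genes was not tested.

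**Figure D4:**
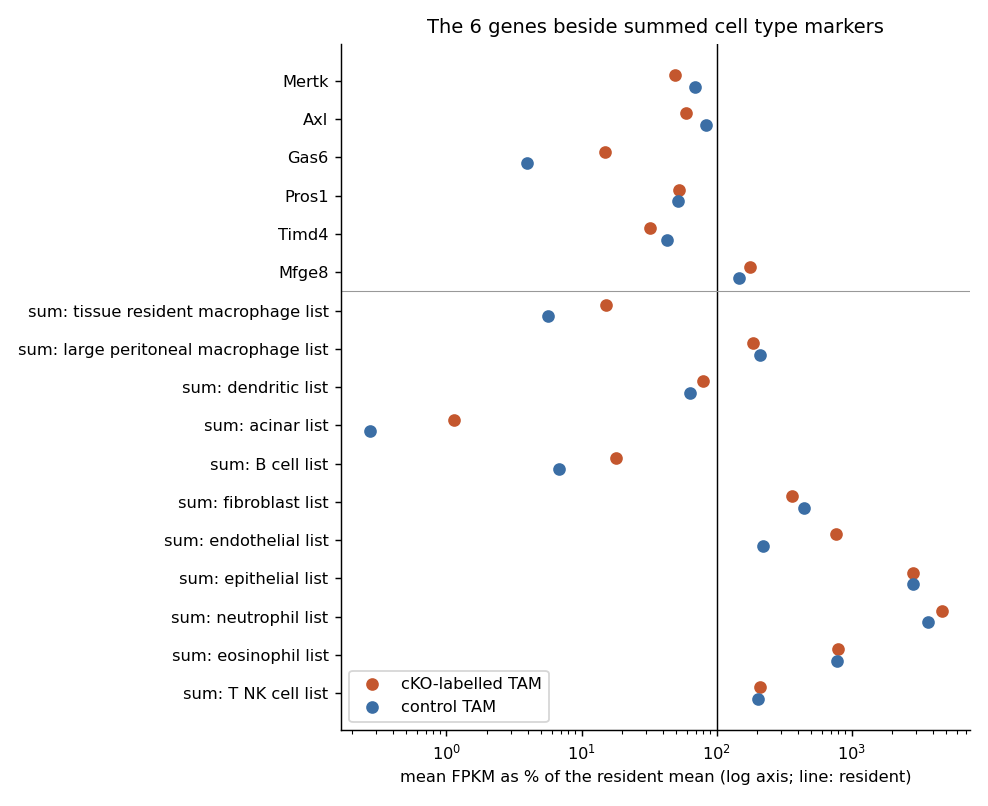
Mean FPKM of the 6 genes and summed FPKM of 11 cell type marker lists in cKO-labelled and control TAM, each as a percent of the resident mean on a log axis. In both TAM groups the neutrophil, eosinophil, dendritic and B cell sums are mostly Retnlg, Alox15, Irf8 and Ighm. Gas6 lies at 15% in cKO-labelled TAM and 3.97% in control TAM, near the sum of the tissue-resident macrophage list at 15.1% and 5.62%. The B cell sum lies near Gas6 as well, so this likeness is not particular to the tissue-resident list. The acinar sum is lower than these in both TAM groups, and it too is higher in cKO-labelled than in control TAM.

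Among 101 other genes of apoptotic cell clearance in 8 lists, 93 were in the table and 89 were tested. In cKO-labelled against control TAM 26 rose, 27 fell and 36 did not pass the test, with a median log2 change of -0.04. The share called, 59.6%, was above the 39.6% of all genes tested. The latter share depends on expression level, and was 47.9% when only genes with at least 5 FPKM in at least 3 libraries were tested. In control TAM against resident macrophages 38 rose and 35 fell, with a median of -0.01 and 82.0% called. With the libraries rescaled to a common total, 18 rose and 37 fell in the first comparison, and 52 rose and 29 fell in the second.

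Of 15 other receptors for dying cells tested, 3 rose and 6 fell in cKO-labelled against control TAM. Among those that fell were the integrin subunit gene Itgb5, whose product pairs with the alpha-v chain as a receptor for MFG-E8, the scavenger receptor Msr1 and the endocytic receptor Lrp1. Itgb5 averaged 90.5 ± 0.363 FPKM in cKO-labelled TAM, 133 ± 3.26 in control TAM and 119 ± 2.96 in resident macrophages (log2 change -0.55 between the TAM groups, adjusted p = 6.98e-09). Msr1 averaged 251 ± 9.72 FPKM in cKO-labelled TAM, 355 ± 4.41 in control TAM and 125 ± 5.86 in resident macrophages (-0.50, adjusted p = 1.53e-07). The phosphatidylserine receptor gene Havcr2, encoding TIM-3, averaged 10.8 ± 0.840 FPKM in cKO-labelled TAM and 14.0 ± 1.27 in control TAM (-0.35, adjusted p = 0.00284).

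The receptor genes with the largest differences from resident macrophages did not all move with Timd4. Cd36, a scavenger receptor for oxidised lipids, averaged 32 ± 1.28 FPKM in control TAM and 376 ± 23.5 in resident macrophages (log2 change -3.51, adjusted p = 2.95e-18). Stab1, a phosphatidylserine receptor of resident macrophages and endothelium, averaged 15.8 ± 0.160 FPKM in control TAM and 98.9 ± 4.50 in resident macrophages (-2.57, adjusted p = 2.55e-17). The inhibitory phosphatidylserine receptor gene Cd300lf averaged 89.5 ± 0.674 FPKM in control TAM and 2.0 ± 0.207 in resident macrophages (4.91, adjusted p = 5.97e-20). In all, 10 of the 15 rose and 4 fell in control TAM.

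Of 9 other bridging proteins and opsonins tested, 5 rose and 3 fell in cKO-labelled against control TAM, with a median log2 change of 0.22. C1qb, a chain of the complement protein C1q that coats dying cells, averaged 5708 ± 96.3 FPKM in cKO-labelled TAM, 4733 ± 83.5 in control TAM and 7777 ± 296 in resident macrophages. It rose between the TAM groups (0.27, adjusted p = 7.66e-06), a call lost under quantile normalization (0.05, adjusted p = 0.0817). Thbs1, encoding thrombospondin 1, averaged 295 ± 6.17 FPKM in cKO-labelled TAM, 226 ± 4.18 in control TAM and 25.0 ± 0.873 in resident macrophages (0.38, adjusted p = 1.13e-06 between the TAM groups). The complement opsonin gene C3 fell to 99.2 ± 4.90 FPKM in cKO-labelled TAM, against 140.1 ± 2.92 in control TAM (-0.49, adjusted p = 4.17e-07). Anxa1, encoding annexin A1, fell to 283 ± 6.2 FPKM in cKO-labelled TAM, against 362 ± 8.93 in control TAM (-0.35, adjusted p = 1.39e-06).

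Of 17 genes of engulfment signalling tested, 2 rose and 7 fell in cKO-labelled against control TAM. Elmo2, which with DOCK proteins activates the small GTPase RAC1, averaged 47.4 ± 0.331 FPKM in cKO-labelled TAM, 73.3 ± 1.79 in control TAM and 79.5 ± 1.76 in resident macrophages (-0.62, adjusted p = 3.25e-09 between the TAM groups). Ptk2, encoding focal adhesion kinase, averaged 3.50 ± 0.305 FPKM in cKO-labelled TAM and 5.06 ± 0.299 in control TAM (-0.43, adjusted p = 0.000451). Against resident macrophages, control TAM had lower Dock2 (35.0 ± 0.122 against 49.6 ± 0.404 FPKM, adjusted p = 2.03e-09) and lower Abca1, the lipid exporter that handles the cholesterol of engulfed cells (7.57 ± 0.0734 against 15.4 ± 0.192 FPKM, adjusted p = 1.08e-10).

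Of 17 genes of phagosome digestion tested, 12 did not pass the test in cKO-labelled against control TAM. Cybb, the NADPH oxidase subunit of phagosomes, averaged 252 ± 5.83 FPKM in cKO-labelled TAM and 336 ± 6.04 in control TAM (-0.41, adjusted p = 3.11e-06). Rubcn, which directs LC3 to phagosomes, averaged 3.29 ± 0.182 FPKM in cKO-labelled TAM, 3.69 ± 0.436 in control TAM and 11.3 ± 0.791 in resident macrophages, and it fell in control TAM against the resident libraries (-1.40, adjusted p = 7.79e-11).

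Genes that shed AXL and MERTK or answer their signal were listed because AXL and MERTK are cut from the surface by ADAM proteases and induce SOCS proteins. Adam10 averaged 29.0 ± 0.445 FPKM in cKO-labelled TAM, 45.7 ± 1.47 in control TAM and 29.1 ± 1.86 in resident macrophages, where 1 library at 26.3 FPKM stood apart. Adam17 averaged 41.3 ± 1.08 FPKM in cKO-labelled TAM, 55.6 ± 2.45 in control TAM and 38.1 ± 1.64 in resident macrophages. Both fell in cKO-labelled against control TAM (Adam10 -0.64, adjusted p = 1.77e-07; Adam17 -0.42, adjusted p = 5.36e-06) and both rose in control TAM against the resident libraries (Adam10 0.64, adjusted p = 6.63e-09; Adam17 0.53, adjusted p = 1.51e-08). Socs1 averaged 45.8 ± 1.16 FPKM in cKO-labelled TAM, 38.0 ± 2.14 in control TAM and 2.22 ± 0.461 in resident macrophages. Its rise in control TAM against resident macrophages was 3.61 on the log2 scale (adjusted p = 2.37e-15), while that between the TAM groups (0.26, adjusted p = 0.0366) was lost under 4 other scalings.

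Of 9 nuclear receptors and transcription factors of clearance tested, 3 rose and 2 fell in cKO-labelled against control TAM. Pparg, a lipid-sensing nuclear receptor, averaged 11.3 ± 0.127 FPKM in cKO-labelled TAM and 8.90 ± 0.635 in control TAM (0.31, adjusted p = 0.00146). Nr1h3, encoding LXR-alpha, averaged 22.4 ± 1.67 FPKM in cKO-labelled TAM and 24.8 ± 1.06 in control TAM, and did not pass the test (-0.14, adjusted p = 0.0984).

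**Figure D5:**
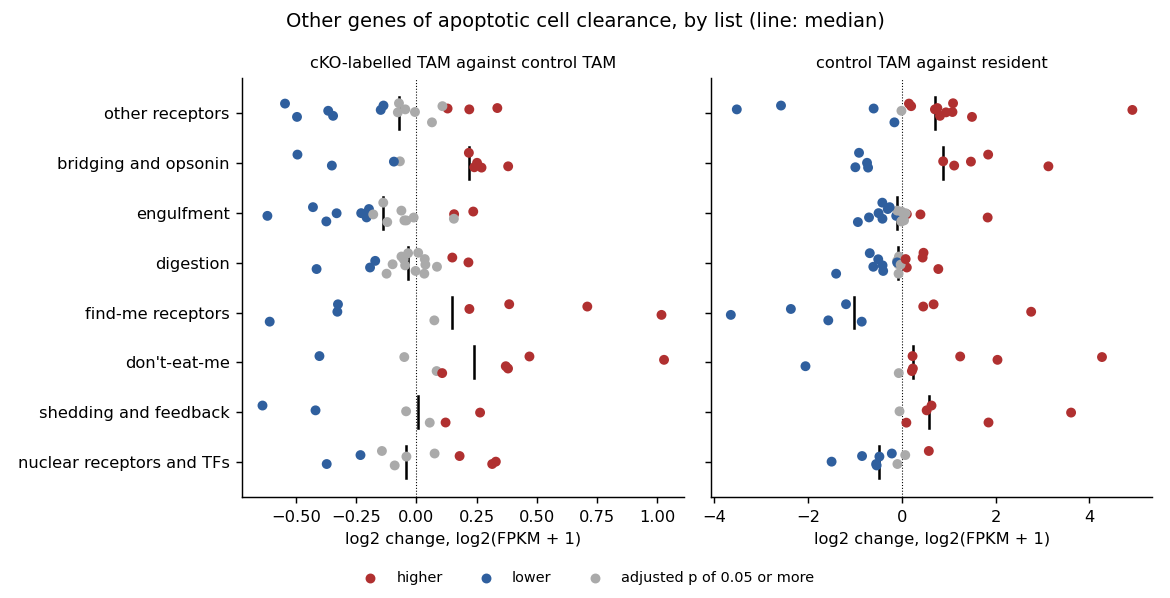
Log2 change of each tested gene of 8 other clearance lists (points, coloured by call) with the median of each list (line), in cKO-labelled against control TAM (left) and control TAM against resident macrophages (right); the axes differ in range. Every list holds genes on both sides of 0 at left; in the shedding and feedback list at right 5 of 6 rose and none fell.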

How the data were processed

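RNA of 10 libraries of sorted mouse macrophages was sequenced. Amplification used a SMART-Seq v4 kit and libraries were Nextera XT, a kit that does not mark strand, per the labels' protocols. The authors deposited 1 table of FPKM for 12535 genes. Per the submitters' processing notes, STAR and edgeR were used, with mm10 and GRCm38 as builds and no versions or roles. The gene lengths, scaling and filter behind the FPKM are not given in the sources. Genes with at least 1 FPKM in at least 3 libraries (11127) were tested with limma 3.58.1 in R 4.3.3 on log2(FPKM + 1). The model had 3 group means over all 10 libraries, 7 residual degrees of freedom and a variance trend. P-values are two-sided and adjusted by Benjamini-Hochberg over all genes tested, at a threshold of 0.05. Log2 changes, given ± SE, are smaller than the true ratio for low genes because of the added 1. Levels are mean FPKM ± SD. The fit was tested on simulated data.

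Whole reads were recovered by taking the longest annotated transcript as the length of a gene: 85.8% to 87.1% of values of 1 to 200 reads were whole within 0.05. Counting errors from these reads cover counting alone. In the 12 same-group pairs of libraries the median squared difference was 1.78 to 3.04 times counting noise, and each library was counted as 1 sample. Alternatives were pseudocounts of 0.1 and 0.5, other filters and scalings, only the groups compared, no variance trend, the replicate number as a block, and leaving out each library. Voom on recovered reads and rescaling without acinar genes were chosen after seeing the data.

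The 6 genes, the lists and the tests were chosen with earlier results of these data known. Genes named were the 6 members, Ahr and Lyz2; of each clearance list, up to 4 tested genes per comparison with the largest change past the threshold and a mean of at least 5 FPKM in the higher group; and the 3 nearest profiles of each member. Part of the genes so returned is named, and 1 of them is not reported here. Csf1r and the single cell type markers given with values were chosen after their values were seen. Promoter windows are RefSeq's, cut to the 250 bases before the start site.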

Additional observations from a re-analysis of the deposited data

Results flagged for a closer look

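Of 83 values checked, 4 had 1 of the 4 resident libraries set apart from the rest, its gap to the nearest library being most of the whole range (Dixon test at the 95% level). Chance alone sets apart about 1 group in 20, and none of the 6 recognition genes was among them. For Havcr2 the share was 0.886, with a lowest library at 6.67 FPKM, a median of 7.74 and a highest of 7.84. For S1pr1 it was 0.876, with values from 54.0 to 59.1 FPKM and a median of 54.5. For Adam10 it was 0.855, with values from 26.3 to 30.3 FPKM and a median of 29.9. For Klf4 it was 0.967, with values from 8.49 to 9.29 FPKM and a median of 9.26.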

How the results depend on the processing

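Over the alternatives other than leaving out a library, 318 values were kept. A change of the 6 genes was kept if its direction and side of the threshold stayed. A count of genes was kept if it stayed within a set fold of the main count. Such counts did move: genes called in cKO-labelled against control TAM were 3629 with the stricter filter and 4791 with voom, against 4410. Rescaling to a common total ended the calls of Axl in control TAM against resident macrophages (-0.055) and of Mfge8 in cKO-labelled against control TAM (0.18; also 0.18 without acinar genes). The sign of Pros1 between the TAM groups, never called, turned under rescaling (-0.051), rescaling without acinar genes (-0.051) and quantile normalization (-0.020), and ran from -0.013 to 0.063 when libraries were left out; the cause was not tested. Leaving out libraries kept the other 269 values, and genes called then ran from 3496 to 4611 in cKO-labelled against control TAM, 8237 to 8559 in control TAM against resident macrophages and 8182 to 8646 in cKO-labelled TAM against resident macrophages. Rescaling put 32.8% of calls on the higher side in cKO-labelled against control TAM, against 51.8% as deposited, and 65.9% against 50.6% in control TAM against resident macrophages. Changes of 2-fold or more numbered 280 with a pseudocount of 0.1 and 315 with voom in cKO-labelled against control TAM, against 147. Replicate numbers did not pair the samples (correlations of same-numbered libraries -0.06 to 0.11), and with the replicate number as a block 4436, 8172 and 8491 genes were called in cKO-labelled against control TAM, control TAM against resident and cKO-labelled TAM against resident macrophages, with no call of the 6 genes changed. Counting error, up to 5.6%, limits Mfge8 most.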

Other observations

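Of 8 receptors for signals that lure macrophages to dying cells, 4 rose and 3 fell in cKO-labelled against control TAM. Gpr34, a lysophosphatidylserine receptor, averaged 9.43 ± 1.14 FPKM in cKO-labelled TAM, 4.14 ± 0.345 in control TAM and 63.1 ± 4.94 in resident macrophages (limma log2 change 1.02 between the TAM groups, adjusted p = 1.71e-07). Cx3cr1, the fractalkine receptor, averaged 20.5 ± 0.813 FPKM in cKO-labelled TAM, 31.8 ± 0.598 in control TAM and 58.2 ± 2.49 in resident macrophages (-0.61, adjusted p = 7.97e-08). The order of Gpr34 over the groups is that of Gas6, and the order of Cx3cr1 that of Mertk.

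Of 8 genes of don't-eat-me signalling, 5 rose and 1 fell in cKO-labelled against control TAM. Siglecg, an inhibitory lectin that binds CD24, averaged 14.5 ± 0.173 FPKM in cKO-labelled TAM, 6.63 ± 0.339 in control TAM and 0.854 ± 0.101 in resident macrophages (1.03, adjusted p = 2.98e-08). It is also expressed by B cells, whose 4 tested markers rose between the same groups. Their sum was 243 FPKM in cKO-labelled TAM, 91.7 in control TAM and 1354 in resident macrophages, where Siglecg was lowest. The part of B cells in the change of Siglecg was not tested. Sirpa, the receptor for CD47, averaged 146 ± 2.63 FPKM in cKO-labelled TAM and 194 ± 1.31 in control TAM (-0.40, adjusted p = 9.25e-08).

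Gas6 varied less between control TAM libraries, with a CV of 1.44%, than the counting error of 3.49% to 4.22% that its recovered reads would give. This was not particular to Gas6. Mfge8 in control TAM had a CV of 1.61% beside a counting error of 3.62% to 4.34%, and Timd4 in cKO-labelled TAM 1.16% beside 1.62% to 2.01%. Other genes varied more than their counting error, such as Pros1 in control TAM, at 5.31% beside 1.51% to 1.90%.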
